A study of Homo sapiens with 12 samples.

Results

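The pyruvate dehydrogenase kinases and phosphatases, with the catalytic subunits they act on, were described in the kidney cancer cell lines RCC4 and UMRC2, both established from human tumours. The set holds 9 named genes out of 19775 genes on the array. They are the kinases PDK1, PDK2, PDK3 and PDK4, the phosphatases PDP1 and PDP2, and the subunits PDHA1, PDHB and DLAT. Probe sets annotated to 1 of these symbols alone were taken, 23 in all, and the probe set with the highest mean over the arrays stood for each gene. PDP2 had none in the annotation used and has no value here, so 8 members were measured. All 8 passed the filter on dim probe sets, which kept 14280 genes.

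Pyruvate dehydrogenase is the mitochondrial complex that turns pyruvate into acetyl-CoA, and so joins glycolysis to the citric acid cycle. The kinases phosphorylate its E1 alpha subunit and switch the complex off, and the phosphatases reverse this. PDK4 is known as the kinase that rises in fasting, when tissues burn fatty acids, and PDK1 as a target of hypoxia-inducible factor. The PDK1 described here is the pyruvate dehydrogenase kinase, not the AKT-activating kinase that shares this abbreviation.

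Each line carried stably FoxO3(TA)ERT2, FoxO1(TA)ERT2 or a control described as ERT2 alone, which the labels call empty vector (EV). The series text gives both lines low FoxO1 and FoxO3 of their own. On these arrays the brightest FOXO3 probe set reached the median of all values in 12 arrays and that of FOXO1 in 9. In vehicle EV cells FOXO3 was at log2 10.38 in RCC4 and 11.65 in UMRC2, and FOXO1 at 6.46 and 6.78. These are RNA levels, and the series holds no other cells to set them against. Alanine stands at 3 AKT sites of each fusion, and ERT2, the modified hormone-binding part of the estrogen receptor, holds the fusion in the cytoplasm until 4-hydroxytamoxifen (4OHT) is added. Cells growing under puromycin received 100 nM 4OHT, or ethanol as the vehicle, for 12 h before total RNA was hybridised to Affymetrix U133 Plus 2.0 arrays. With 12 combinations of line, construct and treatment and 1 array for each, the 2 cell lines are the replicates of a construct, and precision is limited by the small number of arrays. The labels do not say whether a stable line was 1 clone or a pool.

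The values are log2 levels of quantile-normalised intensity, with dim values raised to a floor of log2 4.20. Levels of different genes are not set against each other, since each comes from its own probe set. PAX8, KRT8 and KRT18, markers of kidney and epithelial cells, lay at or above the median of all values in all 12 arrays, LHX1 lay below it in all 12, and CA9 had no probe set listed. EPCAM, another epithelial marker, reached it in 6 arrays. Of the leukocyte markers CD14 was at the floor in all 12 arrays, PTPRC reached the median in 0 and CD3E in 9. Of the endothelial markers CDH5 was at the floor in all 12, VWF reached the median in 0 and PECAM1 in 12. Of the fibroblast markers DCN reached it in 12, LUM in 0 and PDGFRB in 1, with PDGFRB at the floor in 8. Of the hepatocyte markers ALB reached it in 0 and APOB in 4. Of 9 probe sets for ESR1, which read the fusions, 5 exceeded the EV level by log2 2 or more in each of the 4 fusion lines. Their vehicle medians were 12.49 and 9.22 in RCC4 FoxO3 and FoxO1, and 13.23 and 12.29 in UMRC2 FoxO3 and FoxO1, against 5.28 in RCC4 EV and 4.63 in UMRC2 EV. These 5 were picked for that gap, so their low EV levels follow from the choice. The remaining ESR1 probe sets did not show the gap in all 4 fusion lines. Whether EV was matched for ERT2 therefore cannot be told, and EV is not taken as matched. In each line the FoxO3 fusion also read higher than the FoxO1 fusion, so isoform and fusion level cannot be told apart. As deposited, the geometric mean of the spike-in probe sets was 2515 in the RCC4 FoxO3 array with 4OHT, against 4212 to 4699 in the other 5 RCC4 arrays, and 2239 to 2463 in the 6 UMRC2 arrays. The RCC4 FoxO3 pair therefore spans 2 intensity levels, whose origin the labels do not give. The FoxO3 results of the members are given with and without it. Without it the FoxO3 construct rests on the UMRC2 pair alone, and the spread between lines comes from the EV and FoxO1 pairs.

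PDK4 and PDK1 are the kinases with the largest responses, and the promoter windows around their annotated starts are shown so that the values can be read beside them. Each window, written 5′ to 3′, holds 250 bases before and 50 bases from a RefSeq start in build GRCh38.p14. Capitals mark AAACA, a short core of the FoxO recognition sequence, and ACGTG, the core of the hypoxia response element, on either strand (read as TGTTT and CACGT on the reverse strand).
PDK4, chr7:95596467-95596766, minus strand: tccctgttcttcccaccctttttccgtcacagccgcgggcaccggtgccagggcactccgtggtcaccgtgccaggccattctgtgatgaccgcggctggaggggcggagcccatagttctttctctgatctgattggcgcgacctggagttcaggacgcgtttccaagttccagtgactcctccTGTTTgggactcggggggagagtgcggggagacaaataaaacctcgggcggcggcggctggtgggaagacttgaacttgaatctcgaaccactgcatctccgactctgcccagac
PDK1, chr2:172555840-172556139, plus strand: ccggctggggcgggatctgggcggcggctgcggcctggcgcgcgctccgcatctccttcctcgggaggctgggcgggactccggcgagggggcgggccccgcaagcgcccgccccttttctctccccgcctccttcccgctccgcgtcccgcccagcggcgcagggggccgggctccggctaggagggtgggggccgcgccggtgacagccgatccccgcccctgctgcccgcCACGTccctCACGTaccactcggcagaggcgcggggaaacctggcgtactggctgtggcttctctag
Of 6 motifs searched on both strands, the PDK4 window held only AAACA, once, on the reverse strand with its first letter at position -65 from the start. The full FoxO core GTAAACA and the insulin response core CAAAACA, which contains AAACA, were not in it. The PDK1 window shown held only ACGTG, at positions -17 and -8, both on the reverse strand. PDK1 has a second window in the same table, at chr2:172555123-172555422, which held only AAACA, once, at position -6. Among 35116 promoter windows of the same length, 44.4% held AAACA, 21.4% ACGTG, 4.92% CAAAACA and 3.42% GTAAACA. The E-box CACGTG, which contains ACGTG, was in 7.26% and the nuclear receptor half-site AGGTCA in 13.8%, and neither was in these windows. The windows of PDK2 and PDK3, kinases with no response that passed a test, are not shown. Each of them held AAACA, and both genes also had matches to CAAAACA and ACGTG. A match is a description of letters and says nothing of binding.

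PDK4 was high in the FoxO3 lines with 4OHT and in no other array. In RCC4 FoxO3 its level was 10.06 with 4OHT, against 4.72 with vehicle. In UMRC2 FoxO3 it was 10.28 with 4OHT, against 7.14 with vehicle. These 2 arrays were the highest of the 12, and the next level was 7.39, in UMRC2 FoxO1 with 4OHT.

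The other lines moved little. RCC4 FoxO1 was at the floor in both arrays, and RCC4 EV was at the floor with 4OHT and at 4.27 with vehicle. UMRC2 FoxO1 had 7.39 with 4OHT, against 7.001 with vehicle, and UMRC2 EV had 7.11 with 4OHT, against 6.51 with vehicle. PDK4 reached the median of all values in 6 of 12 arrays.

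As a ratio of 4OHT over vehicle, PDK4 was 40.4-fold in RCC4 FoxO3 and 8.83-fold in UMRC2 FoxO3, against 1.31-fold in UMRC2 FoxO1 and 1.52-fold in UMRC2 EV. The deposited intensities also differed before any scaling, at 788.3 with 4OHT against 31.0 with vehicle in RCC4 FoxO3 and 1040.0 against 116.7 in UMRC2 FoxO3. The RCC4 vehicle value lies close to the floor.

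Responses, the 4OHT level minus the vehicle level in 1 line, were compared between constructs in limma with Benjamini-Hochberg adjustment over all 14280 genes, in a fit with the cell line as a term. The FoxO3 response of PDK4 exceeded the EV response by 3.97 ± 0.90 (log2, SE, 2 lines each), with a 95% interval from 1.51 to 6.43. Its adjusted p was 0.112 in limma with the prior variance following the mean response, as the test had been set out, and 0.0182 with the prior variance following the mean level. The mean-level setting was added after the fit as set out had been seen to call no gene, and each call under it carries that limit. Its SE was 0.84. Without the RCC4 EV pair the added setting also lost the call. Without the RCC4 FoxO3 pair the difference was 2.61, and neither setting called it (adjusted p 0.279 and 0.131).

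Against the FoxO1 response, the FoxO3 response of PDK4 was higher by 4.05 ± 0.90, between lines that also differed in fusion level. The adjusted p was 0.238 as set out and 0.0367 with the added setting. A FoxO3 minus FoxO1 difference as large was found in 0.028% of all genes. The call was lost without the RCC4 FoxO3 pair (2.69, adjusted p 0.190), the RCC4 FoxO1 pair (3.47, 0.184) or the UMRC2 FoxO1 pair (4.62, 0.0865). The FoxO1 response of PDK4 differed from EV by -0.08, with an interval from -2.54 to 2.39 that is too wide to show that FoxO1 left PDK4 unchanged.

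A second bright probe set of PDK4 was also highest in the FoxO3 arrays with 4OHT. Relative to EV, its FoxO3 responses were 5.56 in RCC4 and 2.78 in UMRC2, against 5.40 and 2.54 for the probe set used. The RCC4 values rest on arrays at the floor, RCC4 EV with 4OHT for both probe sets and RCC4 FoxO3 with vehicle for the second. Under FoxO1 the second gave 1.29 in RCC4 and -0.21 in UMRC2, against 0.07 and -0.22 for the probe set used. The third, which was at the floor in 7 of 12 arrays, gave 1.83 and 0.42 under FoxO3, against 0.83 and 1.12 under FoxO1, and does not separate the isoforms.

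**Figure D1:**
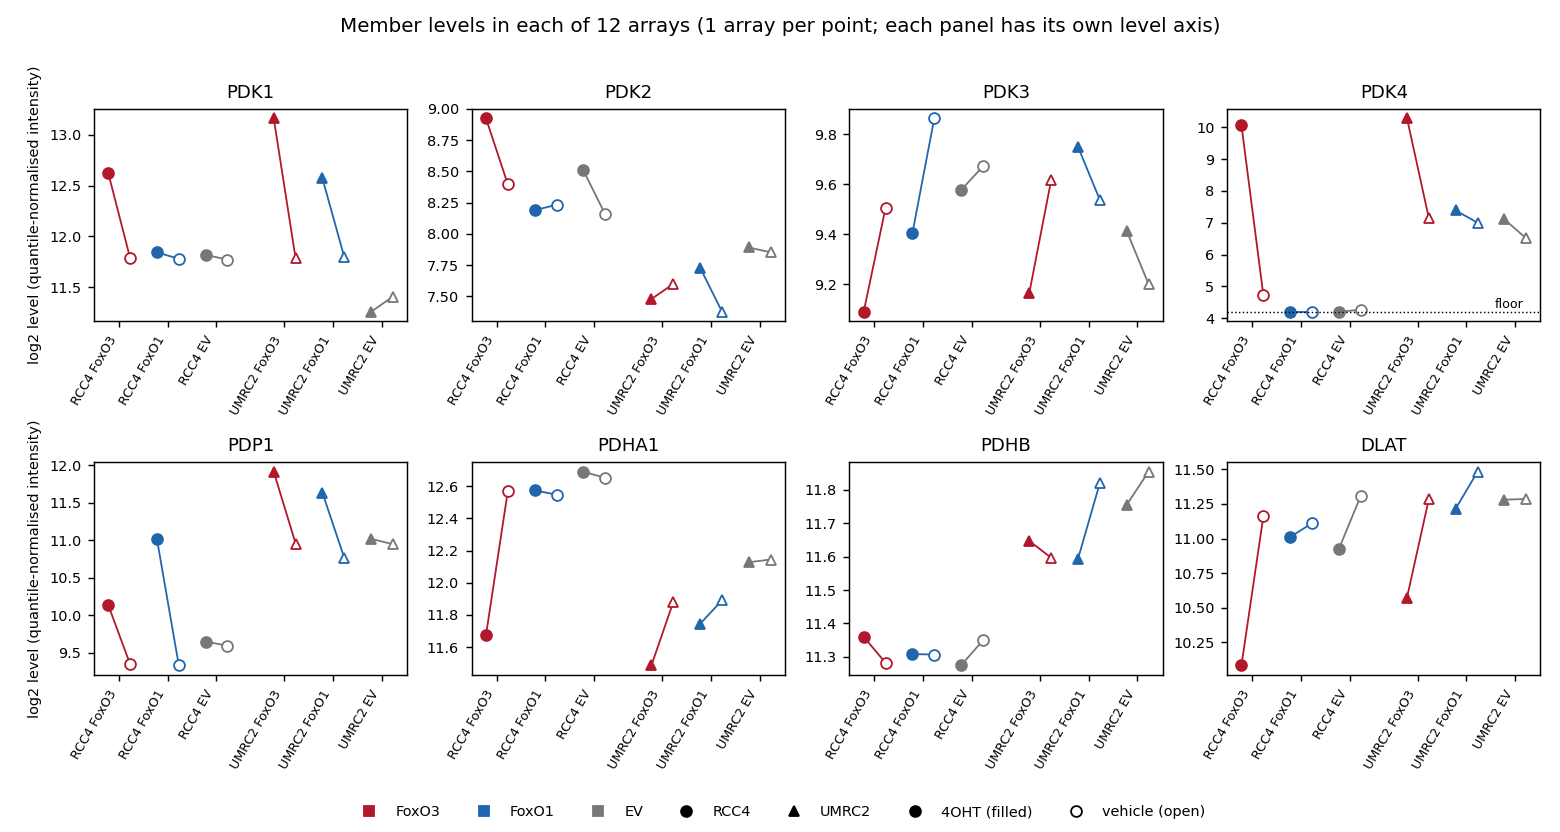
Log2 level of quantile-normalised intensity (vertical axis, a separate scale in each panel) of the 8 measured members in each line and construct, with 1 array per point, 4OHT filled and vehicle open, circles for RCC4 and triangles for UMRC2. PDK4 stands at 10.06 and 10.28 in the FoxO3 lines with 4OHT and at 7.39 or lower in the other 10 arrays.

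PDK1 was the other kinase that was higher with 4OHT in both FoxO3 lines. Its level in RCC4 FoxO3 was 12.62 with 4OHT, against 11.79 with vehicle, and in UMRC2 FoxO3 it was 13.16 with 4OHT, against 11.78 with vehicle. UMRC2 FoxO1 also stood higher, at 12.57 with 4OHT, against 11.80 with vehicle. RCC4 FoxO1 had 11.84 with 4OHT, against 11.78 with vehicle. RCC4 EV had 11.82 and UMRC2 EV 11.26 with 4OHT, against 11.77 and 11.41 with vehicle. The 3 highest arrays were therefore the FoxO3 lines and UMRC2 FoxO1, all with 4OHT, and the vehicle arrays of the fusion lines stood between 11.78 and 11.80.

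The FoxO3 response of PDK1 was 0.84 in RCC4 and 1.38 in UMRC2, against 0.05 and -0.15 in EV. The difference from EV was 1.16 ± 0.33, with an interval from 0.26 to 2.06, an adjusted p of 0.134 as set out and 0.0132 with the added setting. Without the RCC4 FoxO3 pair, which leaves FoxO3 with 1 line, it was 1.30. Without the UMRC2 EV pair, which leaves EV with 1 line, it was 0.75, and the added setting lost the call. The deposited PDK1 intensities of the RCC4 FoxO3 pair were 4996.4 with 4OHT and 4682.9 with vehicle, so before scaling these values were close. In UMRC2 FoxO3 they were 7171.7 with 4OHT and 2709.6 with vehicle.

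For FoxO1 the PDK1 responses were 0.06 in RCC4 and 0.78 in UMRC2. The mean difference from EV was 0.47 ± 0.33, with an interval from -0.43 to 1.37. FoxO3 minus FoxO1 was 0.69 ± 0.33, adjusted p 0.368 as set out and 0.124 with the added setting, so a difference between the isoforms was not shown. It was 0.83 without the RCC4 FoxO3 pair (0.547 and 0.151). All 3 PDK1 probe sets lay above EV under FoxO3 in both lines, 6 of 6 values from 0.79 to 2.08. Under FoxO1, 5 of 6 did.

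PDK2 and PDK3 showed no response that passed a test. PDK2 responses ran from -0.12 in UMRC2 FoxO3 to 0.53 in RCC4 FoxO3, and the FoxO3 minus EV difference was 0.01 ± 0.33, with an interval from -0.88 to 0.90. It was -0.34 without the RCC4 FoxO3 pair. The 2 PDK2 probe sets disagreed in UMRC2 FoxO1, where the brighter gave 0.31 above EV and the other -1.68. PDK3 was lower with 4OHT in both FoxO3 lines, with responses of -0.42 and -0.45, against -0.09 in RCC4 EV and 0.21 in UMRC2 EV. Its difference of -0.49 ± 0.25 had an adjusted p of 0.289 as set out and 0.249 with the added setting, and was -0.76 without the RCC4 FoxO3 pair (0.301 and 0.169). All 10 values of its 5 probe sets lay below EV under FoxO3, between -0.88 and -0.05, while 7 of 10 did under FoxO1.

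PDP1, a phosphatase that reactivates the complex, was higher with 4OHT in all 4 fusion lines. RCC4 FoxO1 had 11.02 with 4OHT, against 9.33 with vehicle, and UMRC2 FoxO1 had 11.63, against 10.76. RCC4 FoxO3 had 10.13 with 4OHT, against 9.34 with vehicle, and UMRC2 FoxO3 had 11.91, against 10.95. The EV lines stood at 9.65 and 11.02 with 4OHT, against 9.59 and 10.94 with vehicle, in RCC4 and UMRC2 in that order. Within each line, both fusion arrays with 4OHT were above every other array.

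Over both isoforms the PDP1 response exceeded EV by 1.01 ± 0.32, with an interval from 0.14 to 1.89, an adjusted p of 0.233 as set out and 0.0412 with the added setting. PDK1 was the other member called there with the added setting, at 0.82 ± 0.28 (adjusted p 0.250 as set out and 0.0473 with it). PDP1 under FoxO1 alone was 1.22 ± 0.37 above EV and under FoxO3 alone 0.81 ± 0.37, and neither passed under either setting (0.685 and 0.177 for FoxO1, 0.255 and 0.0835 for FoxO3). The FoxO3 difference without the RCC4 FoxO3 pair was 1.09 (0.375 and 0.0504). FoxO3 minus FoxO1 was -0.41, with an interval from -1.41 to 0.60, and -0.12 without that pair. Both PDP1 probe sets lay above EV in every fusion line. As deposited, the RCC4 FoxO3 pair had 833.4 with 4OHT and 840.0 with vehicle, so before scaling that pair showed no increase, whereas RCC4 FoxO1 had 2569.6 with 4OHT and 819.8 with vehicle. Without the RCC4 FoxO3 pair the mean over the isoforms was 1.16, with FoxO3 resting on 1 line. With the added setting PDP1 lost its call without the RCC4 EV pair (0.84, adjusted p 0.218), the RCC4 FoxO1 pair (0.79, 0.0778) or the UMRC2 EV pair (1.19, 0.136). PDK1 lost it without the UMRC2 EV pair (0.40, 0.359) or the UMRC2 FoxO1 pair (0.68, 0.116).

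**Figure D2:**
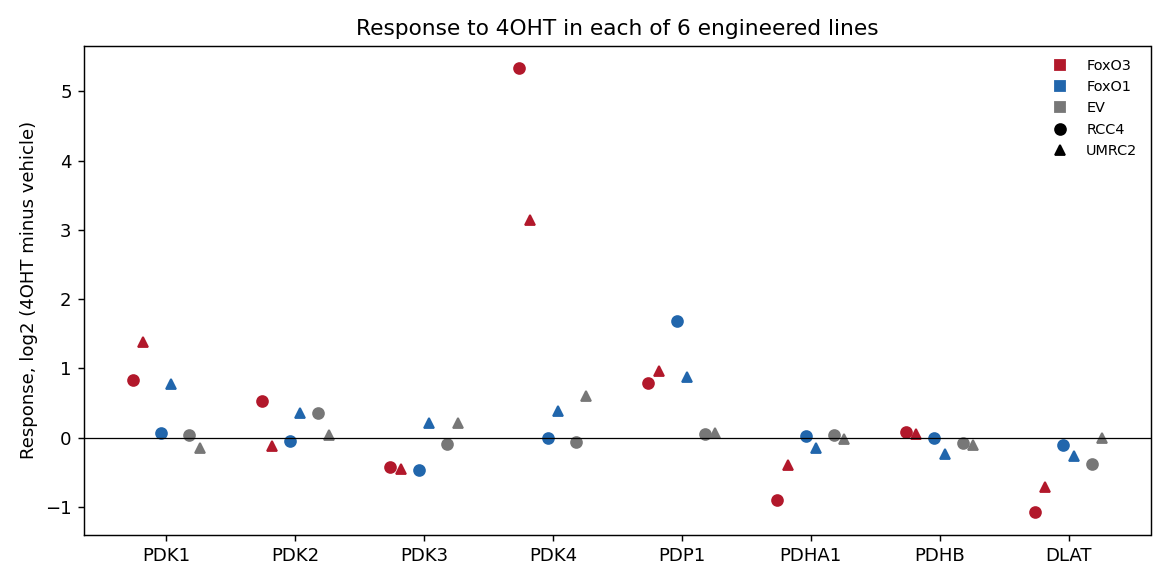
Response to 4OHT (log2, 4OHT minus vehicle) of the 8 measured members in each of 6 engineered lines, coloured by construct, with circles for RCC4 and triangles for UMRC2. PDK4 lies at 5.34 and 3.14 in the FoxO3 lines and at 0.60 or lower in the others, and PDP1 lies at 0.79 or higher in all 4 fusion lines.

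Among the subunits, PDHA1 and DLAT were lower with 4OHT in both FoxO3 lines and PDHB differed little. PDHA1, the E1 alpha subunit that carries the phosphorylated serines, had 11.67 with 4OHT in RCC4 FoxO3, against 12.57 with vehicle, and 11.49 in UMRC2 FoxO3, against 11.88 with vehicle. RCC4 FoxO1 had 12.57 with 4OHT and 12.55 with vehicle, UMRC2 FoxO1 had 11.74 and 11.89, RCC4 EV had 12.69 and 12.65, and UMRC2 EV had 12.13 and 12.14. The FoxO3 array with 4OHT was the lowest of its line in both lines. The FoxO3 minus EV difference was -0.66 ± 0.25, with an adjusted p of 0.197 as set out and 0.0525 with the added setting. It was -0.35 without the RCC4 FoxO3 pair.

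DLAT, the E2 subunit that passes the acetyl group to coenzyme A, followed the same pattern. RCC4 FoxO3 had 10.08 with 4OHT, against 11.16 with vehicle, and UMRC2 FoxO3 had 10.57, against 11.29. Its FoxO1 lines had 11.01 and 11.22 with 4OHT, against 11.11 and 11.48 with vehicle, and its EV lines 10.92 and 11.28 with 4OHT, against 11.31 and 11.29 with vehicle, RCC4 before UMRC2. The difference was -0.70 ± 0.24, with an adjusted p of 0.171 as set out and 0.0528 with the added setting. The difference without the RCC4 FoxO3 pair was -0.57. For PDHA1 and DLAT alike, all 6 values of the 3 probe sets lay below EV under FoxO3, between -1.01 and -0.26 for PDHA1 and between -1.25 and -0.69 for DLAT.

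PDHB, the E1 beta subunit, stayed between 11.27 and 11.85 in all 12 arrays. Its FoxO3 minus EV difference was 0.15 ± 0.19, with an interval from -0.36 to 0.66, and 0.20 without the RCC4 FoxO3 pair. For FoxO1, the differences from EV were -0.07 for PDHA1, -0.03 for PDHB and 0.01 for DLAT, with intervals that reach at most 0.75 from 0 (-0.75 to 0.61 for PDHA1).

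**Figure D3:**
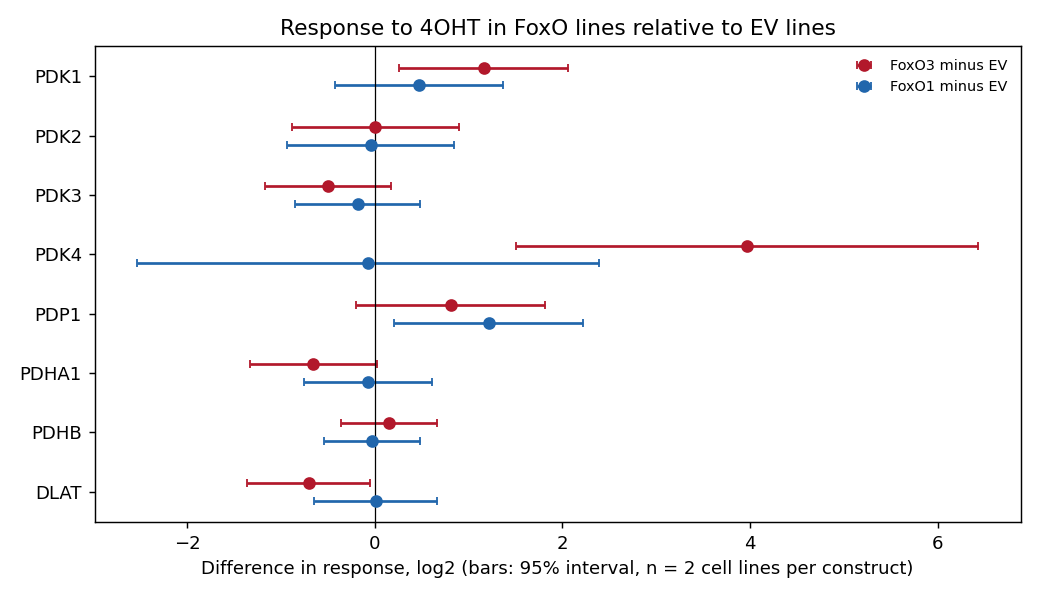
Difference in response to 4OHT from the EV lines (log2, points) with its 95% interval from limma as the test was set out (bars, 2 cell lines per construct), FoxO3 above FoxO1 for each member. The FoxO3 intervals of PDK4, 1.51 to 6.43, and PDK1, 0.26 to 2.06, lie above 0, that of DLAT, -1.36 to -0.05, lies below it, and that of PDHA1 reaches 0.02. For FoxO1 the PDP1 interval, 0.21 to 2.22, lies above 0.

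As the test was set out, 0 members and 0% of all genes passed for FoxO3 against EV, for FoxO1 against EV, for their mean against EV and for FoxO3 against FoxO1. At an unadjusted p under 0.05 the same limma fits had 3794, 988, 2719 and 2454 genes in that order, and 3, 1, 2 and 2 members. With the added setting, FoxO3 against EV called 16.6% of genes and 2 of 8 members, PDK4 and PDK1, both higher. FoxO1 against EV called 0.084% of genes and no member. The mean against EV called 7.78% of genes and 2 members, PDK1 and PDP1, both higher. FoxO3 against FoxO1 called 5.81% of genes and 1 member, PDK4, higher. The comparisons against EV share the EV arrays and are not independent of one another. The median member difference for FoxO3 against EV was 0.08, beside -0.07 over all genes.

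**Figure D4:**
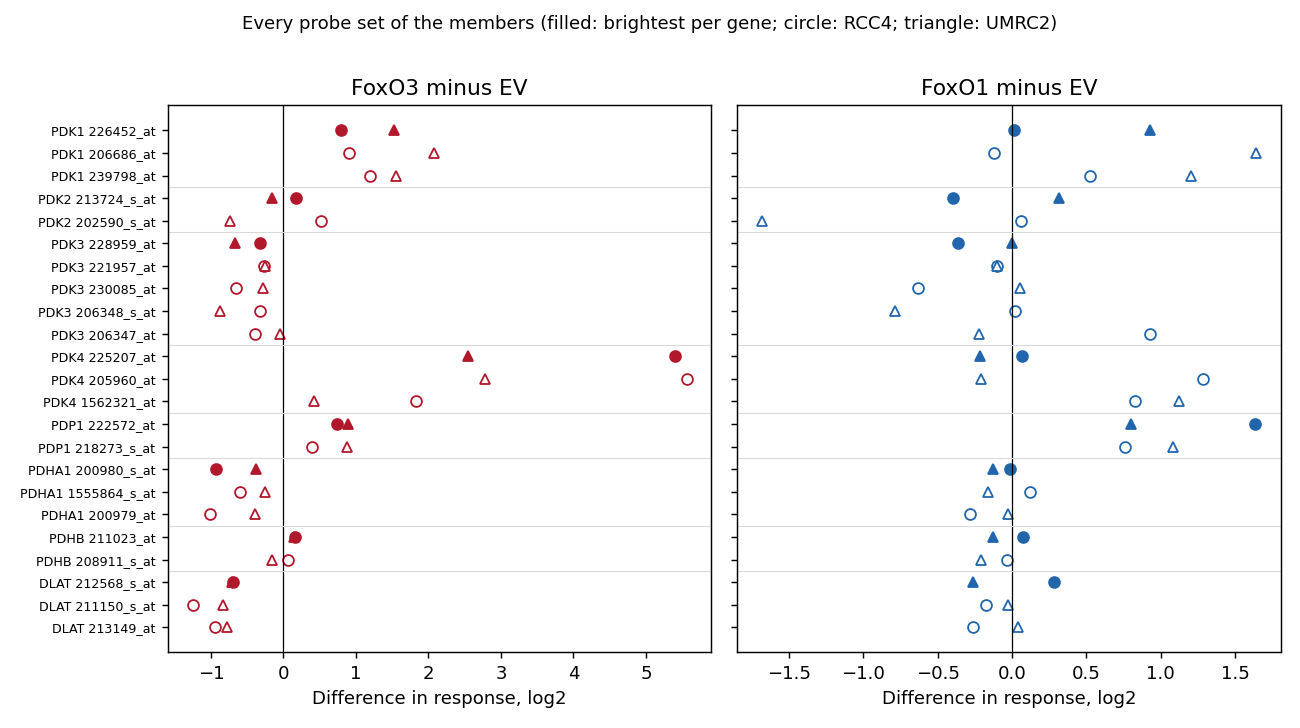
Difference in response from EV (log2) of each of 23 probe sets under FoxO3 and FoxO1, with circles for RCC4, triangles for UMRC2, filled symbols for the brightest probe set of a gene, and a separate horizontal scale in each panel. Under FoxO3 all PDK1, PDK4 and PDP1 values lie above 0 and all PDK3, PDHA1 and DLAT values lie below it, while under FoxO1 this holds for PDP1 alone among these 6 genes.

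In EV cells the test called no member for 4OHT against vehicle, and limma called 0% of genes under either setting, with 536 genes at an unadjusted p under 0.05 as set out and 338 with the added setting. Member differences ran from -0.19 for DLAT to 0.27 for PDK4, and the PDK4 interval, from -1.47 to 2.01, is wide. RCC4 against UMRC2 in the FoxO response likewise called 0% of genes, with 548 and 338 at an unadjusted p under 0.05. For PDK4 the FoxO mean minus EV was 2.73 in RCC4 and 1.16 in UMRC2, a difference of 1.57 with an interval from -7.60 to 10.74. In that fit the FoxO1 and FoxO3 pairs of a line stood as its replicates, so their unlike PDK4 responses enter the error.

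Without 4OHT the fusion lines did not differ from EV by the test. Vehicle FoxO3 against EV and vehicle FoxO1 against EV each called 0% of genes, with 835 and 929 at an unadjusted p under 0.05 in limma. PDK4 was 0.54 ± 0.54 higher in vehicle FoxO3 lines than in EV lines, with an interval from -0.76 to 1.85. PDHA1 was lower by a small amount in both, at -0.17 ± 0.07 for FoxO3 and -0.18 ± 0.07 for FoxO1, with adjusted p 0.822 and 0.755.

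Before activation the lines differed in 5 of 8 members, in a comparison where 50.3% of all genes were called, so the share of members is near that of all genes. PDK4 averaged 4.40 ± 0.28 in RCC4 vehicle arrays and 6.88 ± 0.33 in UMRC2 vehicle arrays (SD, n = 3 constructs each), a difference of -2.48 ± 0.44 (adjusted p 0.00373). PDP1 averaged 9.42 ± 0.15 in RCC4 and 10.89 ± 0.11 in UMRC2, a difference of -1.46 ± 0.09 (adjusted p 3.12e-05).

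PDHA1 was higher in RCC4, at 12.59 ± 0.05 in RCC4 and 11.97 ± 0.15 in UMRC2, a difference of 0.62 ± 0.06 (adjusted p 0.00019). PDK2 was higher by 0.65 ± 0.18 (adjusted p 0.0239), and PDHB was lower by -0.44 ± 0.06 (adjusted p 0.00156). Averaging the probe sets of a gene ended the calls of PDK2 (0.39, adjusted p 0.162) and PDHB (-0.14, 0.0909) and called PDK1 (0.29, 0.0213) and PDK3 (0.48, 0.0242) higher in RCC4. In that setting 48.1% of all genes were called. The PDK2 call was also lost with no filter (adjusted p 0.0914), where 28.4% of all genes were called. It was lost too without the FoxO1 or FoxO3 pair of either line, at 0.55 or 0.58. All vehicle RCC4 arrays had the higher spike-in intensities and all vehicle UMRC2 arrays the lower, so line and array intensity cannot be told apart. With the values as deposited all 8 members were called, where 72.2% of all genes were, and PDHB was higher in RCC4, by 0.34. The median difference over all genes was then 0.78. With the brightest probe set, PDK1, PDK3 and DLAT differed between the lines by 0.12, 0.23 and -0.16, which did not pass the test.

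Genes around the complex were read from 6 lists of 49 genes, of which 41 were measured and 39 tested. For FoxO3 against EV, none passed as set out, and with the added setting 0 were higher and 3 lower of 39, where 6.61% of all genes were higher and 10% lower. CS, citrate synthase, which takes the acetyl-CoA made by the complex into the citric acid cycle, was at -1.01 ± 0.19 (adjusted p 0.108 as set out and 0.00264 with the added setting). Its responses were -0.97 in RCC4 FoxO3 and -0.98 in UMRC2 FoxO3, against 0.05 and 0.02 in EV. PPARGC1B, a transcriptional coactivator of mitochondrial genes, was at -2.26 ± 0.43 (0.108 and 0.0157). MPC2, a subunit of the carrier that brings pyruvate into mitochondria, was at -0.45 ± 0.20 (0.237 and 0.0433). Without the RCC4 FoxO3 pair, which leaves FoxO3 with 1 line, CS was at -0.96 and PPARGC1B at -2.66. MPC2 lost its call there, at -0.29, and LIAS was at -3.24.

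By list, the median FoxO3 minus EV difference was -0.05 for the other complex subunits, -0.33 for the sister 2-oxo acid dehydrogenases, -0.23 for pyruvate supply and fates, -0.60 for cofactor supply, 0.07 for fatty acid oxidation and fasting genes and -0.43 for nuclear receptors and coactivators linked to PDK4, beside -0.07 over all genes. Among the other complex subunits, DLD, the E3 subunit, was at 0.44 ± 0.23 and PDHA2, the testis form of E1 alpha, at -0.69 ± 0.70. Among the sister complexes, BCKDHA was at -0.57 ± 0.20 and OGDH at -0.46 ± 0.20. PC, pyruvate carboxylase, was at 1.48 ± 0.43, with 4 of its 12 arrays at the floor, and SLC16A7, a monocarboxylate transporter, at -0.35 ± 0.47.

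LIAS, lipoic acid synthetase, which makes the cofactor carried by DLAT, was at -1.95 ± 1.09 and LIPT1, a lipoyltransferase, at -0.60 ± 0.19. ANGPTL4, a secreted inhibitor of lipoprotein lipase that rises in fasting as PDK4 does, was at -2.08 ± 0.76, the other way from PDK4. CPT2, of mitochondrial fatty acid import, was at 0.60 ± 0.28. PPARGC1A, the coactivator PGC-1 alpha, was at -1.26 ± 0.43 and ESRRA, a nuclear receptor, at -0.61 ± 0.20. With all pairs, none of these passed under either setting. Without the RCC4 FoxO3 pair ANGPTL4 was at -0.83, PPARGC1A at -0.88, SLC16A7 at -1.10 and PDHA2 at 0.17, the last with its sign turned. For FoxO1 against EV, none of the 39 genes passed under either setting. For the mean against EV with the added setting, CS, PPARGC1A and PPARGC1B were lower and none was higher, where 4.7% of all genes were lower and 3.08% higher. PPARGC1A lost that call without the RCC4 FoxO3 pair, where it was at -1.29 and LIAS at -3.03.

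Likeness in pattern was measured as Pearson's r over the 12 arrays, after each line's mean was taken off, against the 7495 tested genes whose centred levels spanned at least 1 on the log2 scale (7496 for PDK2, PDK3 and PDHB). For PDK4 the closest genes were SIDT2, FAM210B, TCHP, TMOD2 and MXI1, with r from 0.98 to 0.99. The PDK4 list was higher under FoxO3 than in EV by 0.91 for TCHP to 2.12 for TMOD2. That follows from picking genes by likeness to PDK4 over the same arrays and is no separate result. For PDK1 they were ZNF277, ACVR1, AP4E1, DNAJC6 and ZNF267, with r near 0.98. PDP1 was most like RAB40B, GLRX, ATXN1L, DNAAF9 and PPP3CC, with r from 0.91 to 0.95. GLRX, picked for likeness in the same way, differed from EV by 1.30 under FoxO1 and 1.14 under FoxO3, beside 1.22 and 0.81 for PDP1.

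PDHA1 was most like PARPBP, ID2, GOT1, SLC25A13 and GAS2L3 (r 0.98), and DLAT most like NOL7, SLC25A10, KIF15, PFKFB4 and TMEM223 (r 0.97 to 0.98). PDK3 was closest to ANKZF1 at 0.93 and CHRNA3 at 0.92, PDK2 to CAMK2D at 0.85 and PDHB to RAB31 at 0.87. Among the members themselves, PDK4 had r of -0.95 with PDHA1, -0.94 with DLAT, 0.75 with PDK1 and 0.37 with PDP1. All these values share the 12 arrays and are given as a description.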

How the data were processed

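For 12 Affymetrix arrays the authors deposited a linear intensity for each probe set, made with MAS5 per the submitters' processing notes, with version and scaling target not given in the sources used here. Arrays were quantile-normalised, anything below the 20th percentile (18.4) was set to it, and log2 was taken. Gene symbols came from the platform annotation, updated by gene ID. Of 54675 probe sets, 62 were controls, 41091 had 1 symbol, 1801 had several and 11721 none, and only those with 1 were used. Genes reaching the median of all values in at least 2 arrays were tested.

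limma 3.58.1 under R 4.3.3 was fitted to the responses, with terms for construct and for cell line and 2 residual degrees of freedom, two-sided, with a threshold of 0.05 on the Benjamini-Hochberg adjusted p. For comparisons of constructs, the p-values measure how construct effects differ between 2 lines, not between repeat cultures. For RCC4 against UMRC2 in vehicle, they measure how the line difference varies over 3 constructs made in the same lines. For RCC4 against UMRC2 in the FoxO response, the FoxO1 and FoxO3 pairs of a line stood as its replicates. The test had been set out with eBayes(trend=TRUE) on the responses, whose prior variance follows the mean response. That fit called no gene in any response comparison. A prior variance following the mean log2 level, the wording used in the list of alternatives, was then added after this result was seen, and both are reported. In a test on simulated data the fit as set out recovered none of the changed genes and the added one recovered most of the large changes. The simulated noise followed the mean level, the form that the added setting assumes, so the test cannot decide between the 2 settings. Under noise of that form, counts of 0 as set out carry little weight. The vehicle arrays were fitted on levels, where both forms are the same.

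The members, gene lists and comparisons were chosen with earlier results of these data known. All members are named, with up to 4 genes of each list by size of the FoxO3 minus EV difference and the genes most like each member. Alternatives covered scaling, floor, filter, probe set rule, prior variance, line term, 4OHT arrays alone and leaving out each pair. Promoter windows came from RefSeq, with 8 of 9 members matched and none for PDP1.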

Additional observations from a re-analysis of the deposited data

How the results depend on the processing

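As set out, no member was called in a response comparison, and the counts of called members depended on the setting. With the prior variance following the mean level, a setting chosen after seeing the data, 2 members were called for the mean of both isoforms against EV, 2 for FoxO3 against EV and 1 for FoxO3 against FoxO1. Leaving out 1 pair at a time under that setting gave 0 to 3, 1 to 4 and 0 to 2 members in that order, and 0 to 1 for FoxO1 against EV. The shares of all genes called in those fits were 1.2% to 11.4%, 8% to 15.7%, 0.238% to 7.28% and 0% to 1.27%. PDK4 lost its call against EV there without the RCC4 EV or the RCC4 FoxO3 pair, and PDK1 without the UMRC2 EV pair. With 4OHT arrays alone, whose prior variance follows the mean level by construction, the counts were 1, 4 and 2, where 10.9%, 20.5% and 9.85% of all genes were called, with PDHA1 and DLAT lower among the 4. With values as deposited, 1 member, PDK4, was called for FoxO3 against EV and 1 for FoxO3 against FoxO1, where 1.24% and 0.49% of all genes were called. Median scaling, both other floors, no filter, the mean over probe sets, a constant prior variance, no line term and leaving out any 1 pair as set out gave 0 in these comparisons. Single members were followed where their unadjusted p was under 0.05 with either prior, a choice made after seeing the values. Median scaling shifted the median of all genes to -0.14 for FoxO3 against EV, and values as deposited to -0.42, against -0.07. Over 22 alternatives the FoxO3 minus EV difference ran from 2.61 to 5.33 for PDK4 and from 0.75 to 1.57 for PDK1, with 7 past the threshold for each and the sign kept in all. PDP1 over both isoforms ran from 0.72 to 1.24, with 4 past the threshold. Between the lines without 4OHT, 8 members were called as deposited, where 72.2% of all genes were, and PDHB turned to 0.34. No paired analysis was possible because the labels give no replicate numbers that could pair samples beyond the vehicle and 4OHT arrays of a line, which the responses already use. The causes were not tested. Depth is not defined for arrays, and PDK4 in RCC4 without FoxO3 activation lies at or near the floor, so a difference there was not measurable.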
